A study of Mus musculus with 6 samples.

Results

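The transcripts described here are those of the Rel/NF-kB transcription factor subunits and the IkB proteins that bind them, in bone marrow progenitors of mice that carry mutant ASXL1. The genes were taken by symbol from the table of counts: Rel, Rela, Relb, Nfkb1 and Nfkb2 for the subunits, and Nfkbia, Nfkbib, Nfkbie, Nfkbiz and Bcl3 for the IkB proteins. All 10 have a row among the 24421 gene rows, and all 10 were among the 13548 genes with enough counts to be tested. RNA came from LK cells, which are negative for markers of mature lineages and positive for the receptor c-Kit. The 2 groups were wild type mice and ASXL1-MT-KI mice, their littermates carrying the knock-in, all C57BL/6, aged 8 to 12 weeks and with 3 libraries a group. ASXL1 is a Polycomb-associated protein whose mutant forms are found in leukaemia and in ageing blood. The sources used here do not give the locus or promoter of the knock-in, any Cre driver, or whether a library was 1 animal.

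NF-kB factors are dimers of proteins that share a Rel homology domain. RelA, c-Rel and RelB carry a transactivation domain, while Nfkb1 and Nfkb2 encode the precursors p105 and p100, which are processed to the DNA-binding subunits p50 and p52. In resting cells the classical IkB proteins, encoded by Nfkbia, Nfkbib and Nfkbie, hold dimers in the cytoplasm until the IKK kinases mark them for degradation. Nfkbiz and Bcl3 encode atypical IkB proteins that act in the nucleus with p50 or p52 dimers and select target genes. Several genes of the family are themselves NF-kB targets, above all Nfkbia, so that the pathway regulates its own components. In haematopoietic progenitors the pathway is known for its part in inflammatory signalling and in emergency myelopoiesis.

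Promoter sequences are shown because the family is known to bind the promoters of some of its own genes. Of the 10 genes, 7 matched the RefSeq promoter table (GRCm38.p6) by symbol; Relb, Nfkb1 and Nfkbiz did not. The 250 bases before each annotated start were searched on both strands for the kB consensus, the decamer to which NF-kB dimers bind, and overlapping matches were joined. A match was found for 4 of the 7 genes, namely Rel, Nfkb2, Nfkbia and Nfkbie, and for 6 of their 9 windows, Nfkb2 having 3 starts. Over all 32851 windows of that length in the table, 3.9% held a match, a share not matched for base composition. The looser motif GGGNNNNNCC, which every consensus match also satisfies, was in 45.8% of all windows and in the windows of 6 of the 7 genes. For Rela, Nfkbib and Bcl3 the consensus letters were not in the window. A match is a description of letters and was not tested as a binding site, nor was its part in the changes described below. The sequences run 5′ to 3′ on the strand of the gene, and capitals mark the consensus matches.
Nfkbia, minus strand, chr12:55492648-55492897: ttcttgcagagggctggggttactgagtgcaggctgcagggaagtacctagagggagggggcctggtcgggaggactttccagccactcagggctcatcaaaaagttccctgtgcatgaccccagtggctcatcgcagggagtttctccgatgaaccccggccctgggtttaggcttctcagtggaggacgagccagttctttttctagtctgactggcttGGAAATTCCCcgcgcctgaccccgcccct
Nfkbie, plus strand, chr17:45555450-45555699: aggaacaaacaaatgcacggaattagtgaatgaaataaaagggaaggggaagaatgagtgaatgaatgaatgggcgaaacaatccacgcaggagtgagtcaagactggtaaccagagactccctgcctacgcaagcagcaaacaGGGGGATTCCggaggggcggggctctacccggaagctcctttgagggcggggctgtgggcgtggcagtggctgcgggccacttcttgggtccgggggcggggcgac
Rel, minus strand, chr11:23770971-23771219: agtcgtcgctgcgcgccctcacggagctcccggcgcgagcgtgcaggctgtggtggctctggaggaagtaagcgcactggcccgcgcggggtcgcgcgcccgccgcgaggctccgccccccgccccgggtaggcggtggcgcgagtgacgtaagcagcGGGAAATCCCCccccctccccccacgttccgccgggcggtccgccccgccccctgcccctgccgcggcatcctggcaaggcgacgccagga
Nfkb2, plus strand, chr19:46304688-46304717: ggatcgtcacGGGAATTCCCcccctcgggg

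In Nfkbia the match lay 29 to 20 bases before the start and in Nfkbie 106 to 97 bases before it. In Rel, 3 overlapping matches formed a stretch from 92 to 82 bases before the start. The window of the first Nfkb2 start lies within annotated exons, so only 30 bases around its first match are shown. That match reads the same on both strands and lies 39 to 30 bases before the start. This window held 2 separate stretches, and the other, not shown, ended 2 bases before the start.

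The libraries held 40462168 to 47579480 gene counts. Asxl1 was higher in each ASXL1-MT-KI library (310.2 to 326.6 CPM) than in any wild type library (165.1 to 176.0 CPM); these groups did not overlap. CPM is the count relative to the TMM-scaled library size, and errors are SD over 3 libraries. Of the progenitor markers, Kit stood at 373.1 to 452.8 CPM and Mpo at 13302 to 14826 CPM over the 6 libraries, while 2 of the 10 T and NK markers, Cd3g and Cd8b1, had no count in any library and Nkg7 was at 143.7 to 190.1 CPM. Over all tested genes, 16.0% passed an adjusted p under 0.05 (edgeR quasi-likelihood test, Benjamini-Hochberg), 7.69% as lower and 8.29% as higher in ASXL1-MT-KI. No animal is named for a library, so p-values measure the spread between these libraries.

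All 10 NF-kB and IkB genes fell in ASXL1-MT-KI cells and passed the edgeR test, against 7.69% of all tested genes that passed as lower. The falls ranged from a log2 fold change of -1.63 for Relb to -0.23 for Nfkb1, with a median of -0.79, beside a median of 0.00 over all tested genes. For each of the 10, the 3 ASXL1-MT-KI libraries lay below the 3 wild type libraries, which was the case for 17.2% of all tested genes. A fall of at least 1.5-fold was reached by 7 of the 10 (all except Rela, Nfkb1 and Nfkbib), against 2.83% of tested genes. Counts from bulk RNA do not tell fewer cells of a type from less RNA per cell.

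**Figure D1:**
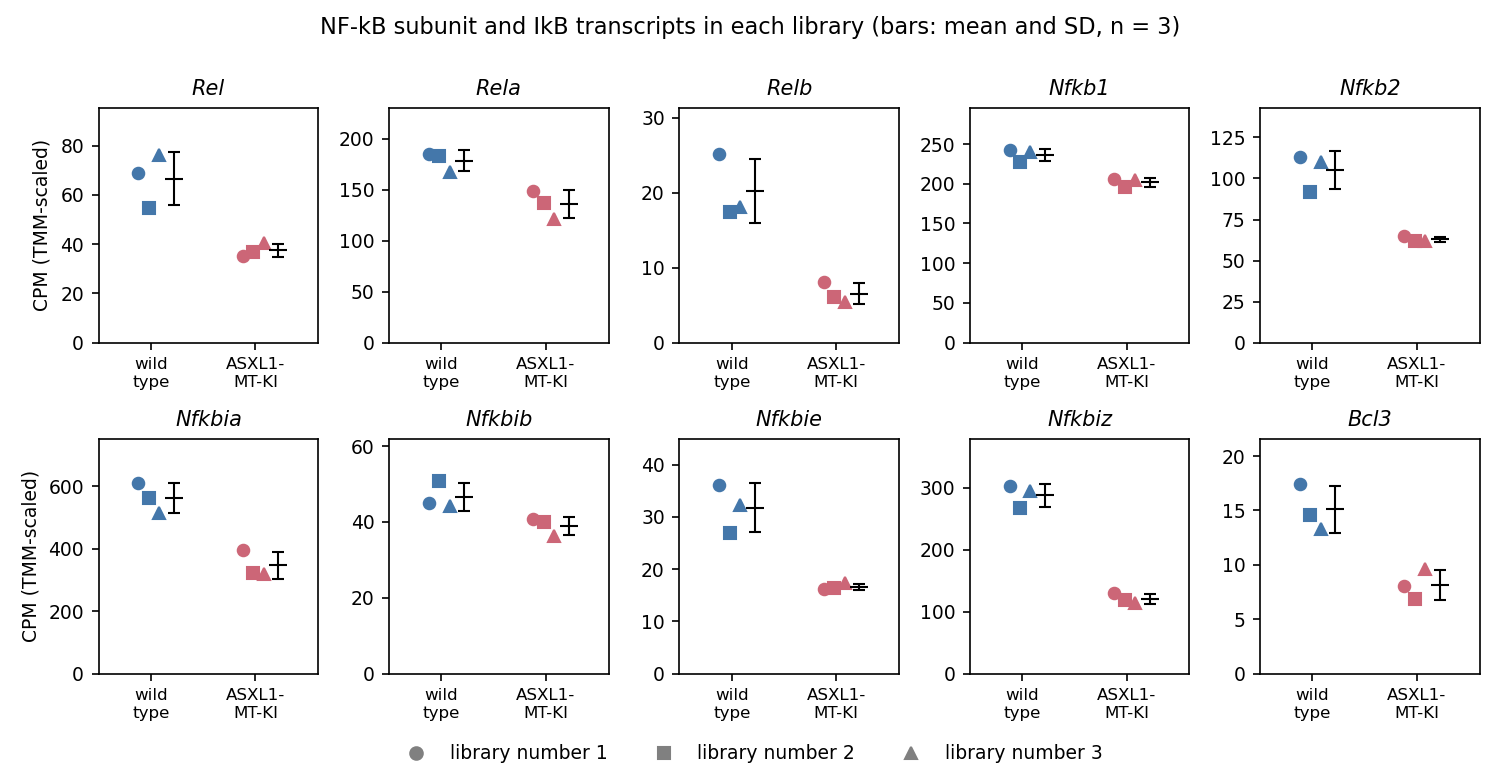
Each panel plots 1 gene, with TMM-scaled CPM on a linear axis from 0, a point for each library (symbols give the library number) and bars for the mean and SD of 3 libraries. In every panel the ASXL1-MT-KI points lie below the wild type points, by a wide gap for Nfkbiz (at most 129.4 against at least 267.2 CPM) and a narrow gap for Nfkb1 (at most 206.3 against at least 227.9 CPM).

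Among the subunits with a transactivation domain, Relb (chromosome 7, 19606217 to 19629438, GRCm38) encodes the main partner of p52 in the non-canonical pathway. Wild type libraries 1 to 3 had 25.1, 17.4 and 18.1 CPM of Relb, and ASXL1-MT-KI libraries 1 to 3 had 8.06, 6.06 and 5.40 CPM. The groups did not overlap, and the wild type library numbered 1 stood above the others. Relb fell to 32.3% of its wild type level (log2 fold change -1.63 ± 0.19, SE; adjusted p = 0.00132, edgeR). It is among the weakest expressed of the 10, with 224 to 1154 counts per library.

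Rel (chromosome 11, 23736847 to 23770970), which encodes c-Rel, the subunit known for its role in lymphoid and myeloid activation, had 69.0, 54.8 and 76.1 CPM in wild type and 35.2, 36.9 and 40.3 CPM in ASXL1-MT-KI. The spread was larger among wild type libraries (66.6 ± 10.8) than among ASXL1-MT-KI libraries (37.5 ± 2.63), without overlap. Rel fell to 56.2% of wild type (log2 fold change -0.83 ± 0.12; adjusted p = 0.00264, edgeR). Rela (chromosome 19, 5637483 to 5648130) encodes p65, the transactivating subunit of the most common dimer. Its libraries stood at 185.3, 183.3 and 166.8 CPM for wild type, and those of ASXL1-MT-KI at 148.6, 137.1 and 121.1 CPM. The number 3 library was the lowest of its group in both genotypes. Rela fell to 76.0% of wild type (log2 fold change -0.40 ± 0.077; adjusted p = 0.00867, edgeR), a smaller step than those of Rel and Relb.

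The precursor genes differed in the size of their falls. Nfkb1 (chromosome 3, 135584655 to 135691547) had 242.2, 227.9 and 239.5 CPM in wild type and 206.3, 195.6 and 204.3 CPM in ASXL1-MT-KI. This was the smallest change of the 10, to 85.4% of wild type (log2 fold change -0.23 ± 0.047; adjusted p = 0.0111, edgeR), with a small spread within each group. The Nfkb1 call was lost without wild type replicate 1 (adjusted p = 0.0504) and without ASXL1-MT-KI replicate 2 (adjusted p = 0.0595, edgeR). Nfkb2 (chromosome 19, 46304320 to 46312385) had 113.2, 91.7 and 110.0 CPM in wild type and 64.9, 61.9 and 61.8 CPM in ASXL1-MT-KI, a fall to 59.9% (log2 fold change -0.74 ± 0.078; adjusted p = 0.000419, edgeR). The spread of Nfkb2 was smaller among ASXL1-MT-KI libraries (62.9 ± 1.76 CPM) than among wild type libraries (105.0 ± 11.6 CPM). Nfkb2 shares 299 exonic bases with Psd and 531 with the noncoding AC114539.1, both on the opposite strand, and reads there cannot be told apart because the library kit does not mark strand. Psd, named for that overlap, had means of 52.7 ± 6.59 and 28.7 ± 1.94 CPM (log2 fold change -0.88, adjusted p = 0.000515, edgeR).

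The classical inhibitors fell as well. Nfkbia (chromosome 12, 55489410 to 55492647) encodes IkB alpha, the rapidly resynthesised inhibitor of canonical dimers. Its libraries had 611.6, 561.6 and 515.1 CPM in wild type and 396.9, 323.2 and 320.4 CPM in ASXL1-MT-KI. The groups did not overlap, the highest ASXL1-MT-KI library holding 77.1% of the lowest wild type library, and number 1 was the highest in both. Nfkbia fell to 61.6% (log2 fold change -0.70 ± 0.095; adjusted p = 0.00229, edgeR).

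Nfkbie (chromosome 17, 45555703 to 45563169) encodes IkB epsilon. It had 36.2, 26.9 and 32.3 CPM in wild type and 16.1, 16.4 and 17.3 CPM in ASXL1-MT-KI, a fall to 52.3% (log2 fold change -0.94 ± 0.10; adjusted p = 0.000542, edgeR). Nfkbib (chromosome 7, 28758251 to 28767512) encodes IkB beta, which responds more slowly. It had 45.1, 50.9 and 44.1 CPM in the wild type libraries, while those of ASXL1-MT-KI had 40.7, 39.9 and 36.3 CPM, 83.5% of wild type (log2 fold change -0.26 ± 0.074; adjusted p = 0.0415, edgeR). The groups did not overlap, but the highest ASXL1-MT-KI library reached 92.4% of the lowest wild type library. This call rested on the full set: it was lost with library totals alone, without TMM factors (adjusted p = 0.0760) and on leaving out any library except wild type replicate 3 (adjusted p up to 0.116, edgeR). Nfkbib shares 314 exonic bases with Ccer2, not analysed here, and 42 with Sirt2, both on the opposite strand. Sirt2 was at 50.6 ± 5.88 and 53.3 ± 4.26 CPM (adjusted p = 0.621, edgeR).

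The nuclear IkB genes among the 10 were Nfkbiz and Bcl3. Nfkbiz (chromosome 16, 55811375 to 55838899) encodes IkB zeta, an inducible cofactor for a subset of inflammatory genes. Its 301.9, 267.2 and 294.1 CPM in wild type compared with 129.4, 118.1 and 114.8 CPM in ASXL1-MT-KI, so that the highest ASXL1-MT-KI library held 48.4% of the lowest wild type library. Nfkbiz fell to 42.0% (log2 fold change -1.25 ± 0.064; adjusted p = 9.72e-06, edgeR) and ranked 7 among the 13548 genes by p. Bcl3 (chromosome 7, 19808462 to 19822770) encodes a nuclear partner of p50 and p52 dimers. It had 17.5, 14.6 and 13.3 CPM in wild type and 8.02, 6.84 and 9.59 CPM in ASXL1-MT-KI, a fall to 53.9% (log2 fold change -0.89 ± 0.14; adjusted p = 0.00344, edgeR). Bcl3 shares 161 exonic bases with the antisense gene Gm16175. The library numbered 3 was the lowest of the wild type group for Bcl3 and the highest of the ASXL1-MT-KI group.

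**Figure D2:**
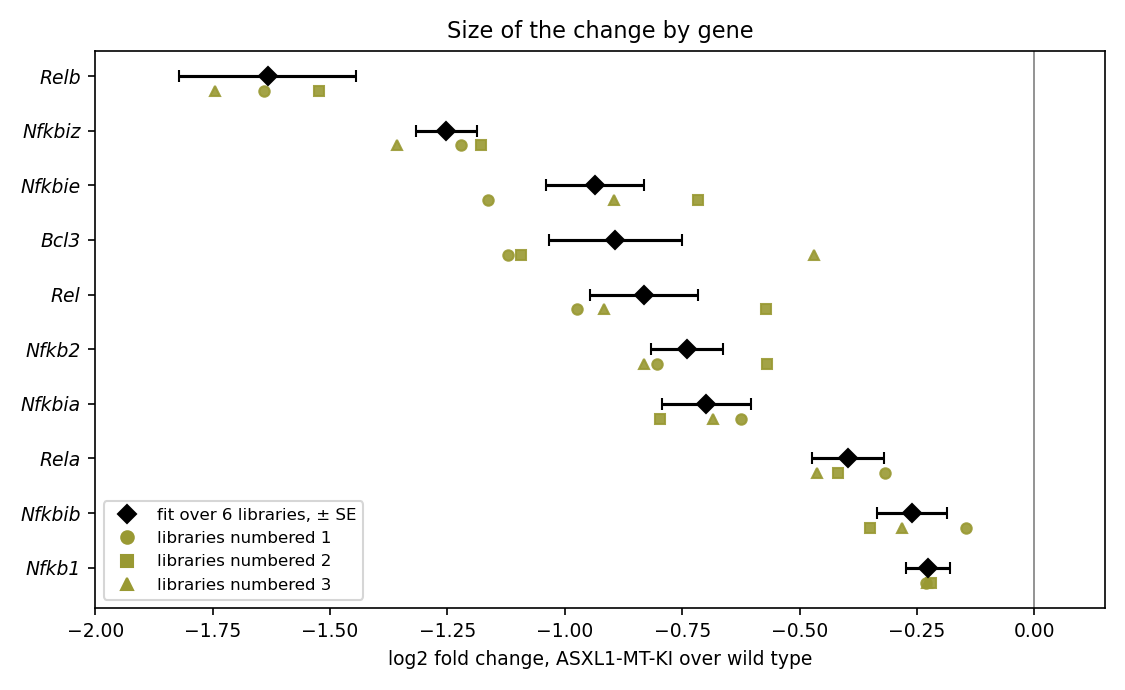
The log2 fold change of each gene (x axis, ASXL1-MT-KI over wild type) is plotted as a black diamond with its SE, and the difference between the 2 libraries of the same number below it. All differences by number lie left of 0, from -1.75 (Relb, number 3) to -0.15 (Nfkbib, number 1).

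Since the groups did not overlap, every difference between libraries of the same number was negative, and the sizes varied. Nfkb1 had the tightest set, from -0.23 to -0.22 on the log2 scale, and Bcl3 the widest, with -1.12, -1.09 and -0.47 for numbers 1 to 3. With the replicate number as a block, all 10 genes also passed, beside 13.8% of tested genes that passed as lower in that fit. Relb at -1.63 ± 0.19 and Nfkbiz at -1.25 ± 0.064 headed the order of change. Nfkbie, Bcl3, Rel, Nfkb2 and Nfkbia followed between -0.94 and -0.70, and each lay within the sum of the SEs of its neighbour in this order. Rela, Nfkbib and Nfkb1 formed the low end, between -0.40 and -0.23. Differences in size between genes were tested only for the ratios given next.

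Ratios within a library do not depend on how libraries are scaled, and 4 were compared. The pairs were chosen with earlier results of these data known. The direction of each difference follows from the fold changes already given, so the test below adds no separate evidence of it. The log2 ratio of Nfkb2 to Nfkb1 CPM was -1.10, -1.31 and -1.12 in wild type and -1.67, -1.66 and -1.73 in ASXL1-MT-KI, a difference of -0.51. Relb to Rela went from -2.88, -3.39 and -3.20 to -4.20, -4.50 and -4.49, a difference of -1.24. The non-canonical partner of each pair was thus lower relative to the canonical gene in every ASXL1-MT-KI library. Nfkbia to Rela differed by -0.30 (1.65 ± 0.059 in wild type and 1.35 ± 0.10 in ASXL1-MT-KI, n = 3 each). Nfkbiz to Nfkbia differed by -0.55 (-0.97 ± 0.14 and -1.52 ± 0.088, n = 3 each). No ratio overlapped between groups. The exact two-sided permutation test gave p = 0.1 for each, also after Benjamini-Hochberg adjustment over the 4, which is the smallest p that 3 against 3 libraries allow.

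Levels can be compared between genes only per length, here as RPKM, the CPM divided by the kilobases of the longest annotated transcript. Nfkbia was the most abundant at 326.4 to 387.6 RPKM in wild type, 56.3% ± 1.68 of the summed RPKM of the 10 genes. Nfkbiz (64.9 to 73.4) and Rela (61.4 to 68.2 RPKM) came next with overlapping ranges, then Nfkb1 (54.9 to 58.4 RPKM). Nfkb2 (23.9 to 29.4) and Nfkbib (21.4 to 24.7 RPKM) overlapped with each other. Nfkbie, Rel, Bcl3 and Relb, all between 5.32 and 12.0 RPKM, each overlapped the next gene in the order.

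**Figure D3:**
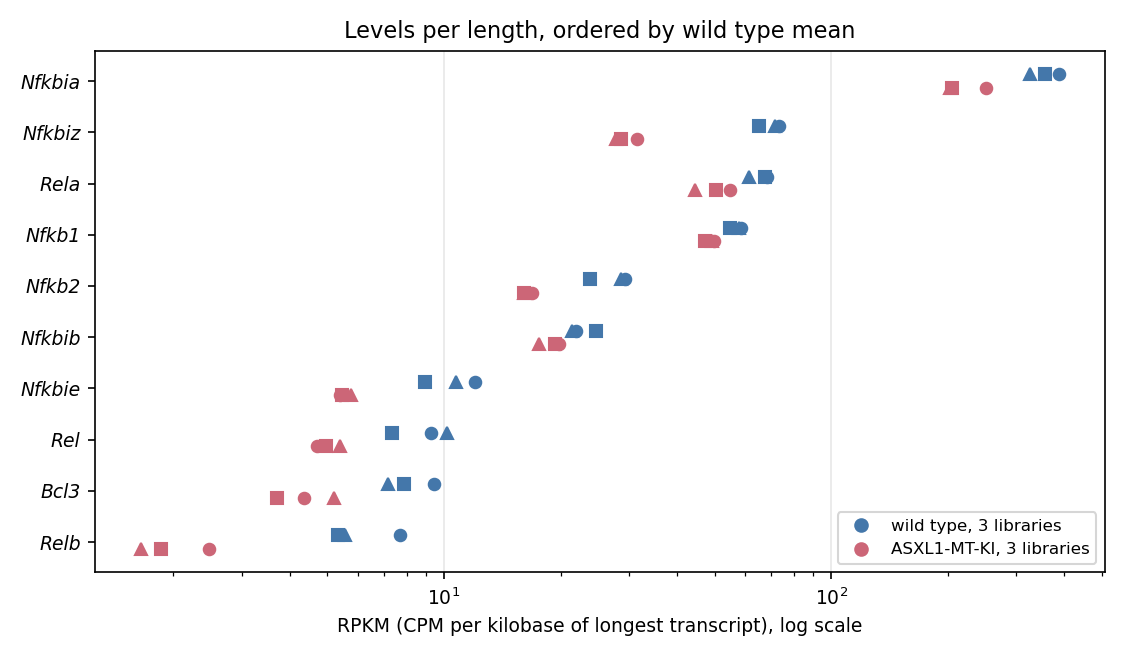
RPKM of each gene on a log axis, 3 wild type libraries in blue and 3 ASXL1-MT-KI libraries in red, ordered by the wild type mean. Nfkbia stands apart at the top in both groups, and Nfkbiz moves from beside Rela in wild type to below Nfkb1 in ASXL1-MT-KI.

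In ASXL1-MT-KI cells the order of mean RPKM changed at 2 places: Nfkbiz went from the second to the fourth rank, behind Rela and Nfkb1, and Nfkbib moved above Nfkb2. The ranges of Rela (44.6 to 54.7 RPKM) and Nfkb1 (47.2 to 49.7 RPKM) overlapped in ASXL1-MT-KI, while that of Nfkbiz (27.9 to 31.5 RPKM) lay below both. The summed RPKM of the 10 genes was 600.6 to 677.2 in wild type and 376.4 to 440.9 in ASXL1-MT-KI. The nuclear IkB genes among the 10, Nfkbiz and Bcl3, made up 12.3% ± 0.70 of that sum in wild type and 8.46% ± 0.34 in ASXL1-MT-KI. Nfkbid, a further nuclear IkB gene, is not among the 10 and not in this sum. The share of the precursor genes went from 13.3% ± 0.91 to 16.3% ± 1.14, and that of the classical IkB genes was 61.5% ± 1.62 and 61.0% ± 1.54. The classical IkB sum exceeded the sum of the 5 subunits by a factor of 2.44, 2.45 and 2.19 in wild type and 2.15, 1.91 and 1.94 in ASXL1-MT-KI. These sums describe the libraries and were not tested, and they rest on the longest transcript of each gene, whichever isoforms were present.

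Genes with the most similar profile over the 6 libraries were sought for the 2 members with the lowest p, as the smallest Euclidean distance between centred log2 CPM values among 9970 other genes with a mean of at least 5 CPM. Nearest to Nfkbiz were Pde4b, which encodes a cyclic AMP phosphodiesterase (distance 0.24; means of 330.9 and 140.3 CPM in wild type and ASXL1-MT-KI), Zc3h12a (0.25), and Tnfrsf12a, which encodes the receptor of the cytokine TWEAK (0.25; 20.3 and 9.11 CPM). Nearest to Nfkb2 were Zbtb10, a zinc finger gene (0.13; 79.3 and 50.1 CPM), the sugar transporter gene Slc2a6 (0.13; 9.18 and 5.45 CPM) and Plek, which encodes pleckstrin (0.16; 279.2 and 161.2 CPM). The distance weighs the size of the genotype difference, so the falls of these 6 genes follow from how they were picked. Their log2 fold changes in edgeR ran from -1.24 (Pde4b) to -0.66 (Zbtb10).

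A list of 32 upstream activators held adaptors, the IKK complex and its kinases, and the ligase that recognises phosphorylated IkB. In edgeR 6 fell (18.8%, beside 7.69% of all tested genes) and 2 rose (beside 8.29% of all tested genes). The other 24 did not pass, nor did 11383 of all 13548 tested genes. The median log2 fold change of the list was -0.04. Malt1, the paracaspase of the complex that links antigen receptors to IKK, was at 69.6 ± 4.50 CPM in wild type and 44.6 ± 1.44 CPM in ASXL1-MT-KI (log2 fold change -0.64 ± 0.061, adjusted p = 0.000274). Its partner Bcl10 fell by 0.38 and the ubiquitin ligase gene Traf6 by 0.24 on the log2 scale. Tirap, an adaptor of Toll-like receptors, rose by 0.41, from 13.4 ± 0.33 to 17.8 ± 1.80 CPM. The other riser was Tradd, an adaptor of TNF receptor 1, at 0.25. The IKK subunit genes, chosen for their role after the values were seen, did not pass: Chuk stood at 69.3 and 65.7, Ikbkb at 128.6 and 124.9 and Ikbkg at 46.3 and 44.8 CPM (means of wild type and ASXL1-MT-KI; adjusted p = 0.391, 0.638 and 0.673, edgeR). The replicate block gave 7 falls and 6 rises, beside 1876 falls and 2256 rises among all 13548 tested genes. Leaving out wild type replicate 1 left 2 calls, and leaving out ASXL1-MT-KI replicate 2 left 3.

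Of 19 further negative regulators, 5 fell (26.3%, beside 7.69% of all tested genes) and none rose (beside 8.29%) in edgeR, and the median was -0.09. DESeq2 called 6 falls, limma-voom 5 and an unadjusted p under 0.05 gave 7, with no rise in these 3. Among all 13548 tested genes, DESeq2 called 1169 falls and 1216 rises, and limma-voom 1051 and 1144. An unadjusted p under 0.05 gave 1927 falls and 2194 rises among them. Zc3h12a, an endonuclease that degrades inflammatory mRNAs, had means of 122.5 ± 3.90 and 57.9 ± 5.58 CPM (log2 fold change -1.08 ± 0.070, adjusted p = 3.31e-05). Nfkbid, which encodes another nuclear IkB protein, had 110.3, 103.7 and 123.7 CPM in wild type and 77.9, 71.1 and 81.9 CPM in ASXL1-MT-KI (log2 fold change -0.55 ± 0.076, adjusted p = 0.00171). Of the A20-binding proteins, Tnip3 fell from 1.51 ± 0.30 to 0.50 ± 0.10 CPM and Tnip1 from 74.8 ± 2.83 to 63.0 ± 1.99 CPM. Tax1bp1, an A20 adaptor named as the remaining call, fell by 0.24 on the log2 scale. Tnfaip3, which encodes A20 itself and was chosen after its values were seen, had 828.4, 810.1 and 628.4 CPM in wild type and 548.1, 493.8 and 326.2 CPM in ASXL1-MT-KI. These groups did not overlap, but both number 3 libraries were low and the gene did not pass (log2 fold change -0.73 ± 0.23, adjusted p = 0.0958, edgeR); with the replicate block it did (adjusted p = 6.54e-05). The block gave 7 falls and 1 rise in this list, beside 1876 falls and 2256 rises among all 13548 tested genes. Leaving out wild type replicate 1 left 3 falls, as did leaving out ASXL1-MT-KI replicate 2.

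**Figure D4:**
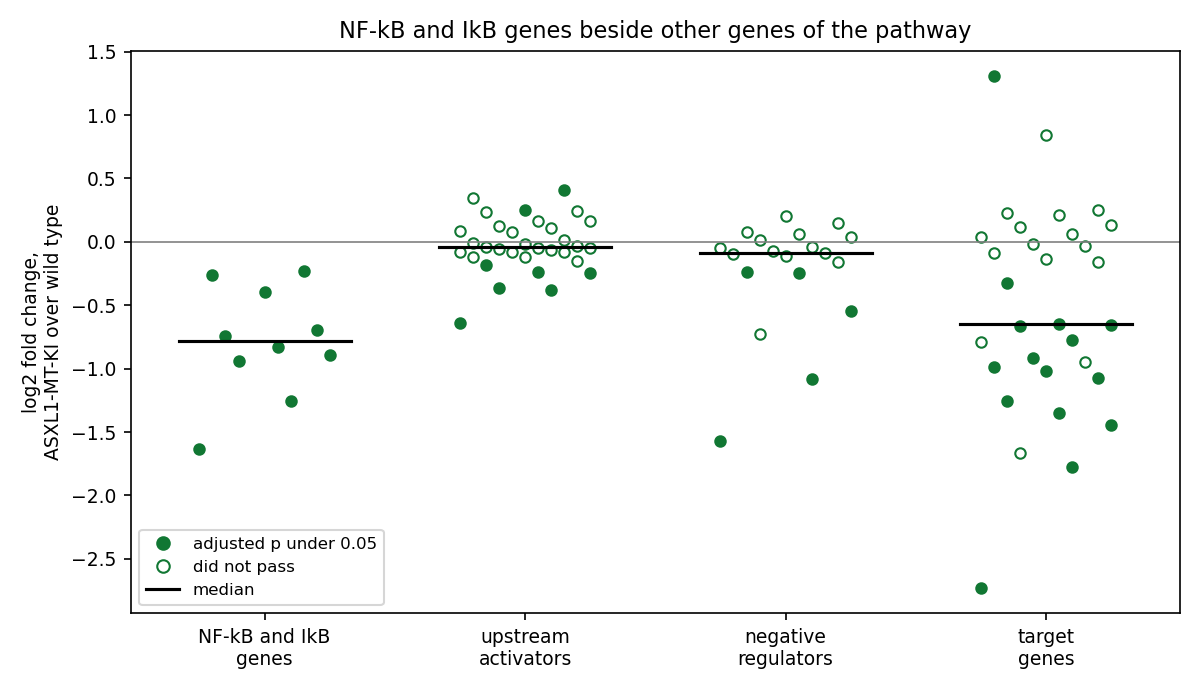
Log2 fold change (y axis, ASXL1-MT-KI over wild type) of each tested gene in 4 lists, filled where the adjusted p was under 0.05, with the median as a line. The medians are -0.79 for the NF-kB and IkB genes, -0.04 for upstream activators, -0.09 for negative regulators and -0.64 for target genes.

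A list of 38 known targets of NF-kB, without the 10 members, was examined next. Of these, 31 were tested, and the other 7, such as Csf2 and Nos2, had 16 counts or fewer in each library. In edgeR 14 fell (45.2% of those tested, beside 7.69% of all tested genes) and 1 rose (beside 8.29%), with a median of -0.64. The replicate block gave 15 falls and 2 rises, beside 1876 falls and 2256 rises among all 13548 tested genes. Birc3, an inhibitor of apoptosis, had means of 58.7 ± 2.15 and 29.5 ± 1.10 CPM (log2 fold change -0.99 ± 0.059, adjusted p = 2.13e-05), and the chemokine gene Cxcl2 fell from 36.4 ± 3.57 to 15.3 ± 2.56 CPM. Irf1, an interferon regulatory factor, fell by 0.66 on the log2 scale (adjusted p = 0.00128, edgeR). The riser was Ccnd1, which encodes cyclin D1, from 26.5 ± 2.33 to 65.6 ± 4.56 CPM. 

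Transcripts of immediate early genes, which are induced quickly by stimulation or by handling of cells, were set beside these falls. Of 12, 3 fell (Junb, Ier2 and Nr4a1, 25.0%, beside 7.69% of all tested genes) and none rose (beside 8.29%) in edgeR. At an unadjusted p under 0.05, 5 fell and none rose, as in DESeq2, and limma-voom called 3 falls and no rise. Of all 13548 tested genes, 1927 fell and 2194 rose at that unadjusted p. DESeq2 called 1169 falls and 1216 rises among them, and limma-voom 1051 and 1144. The median was -0.37, and values ran from -1.29 for Nr4a1 to 0.15 for Dusp1. The Nr4a1 call was lost with the replicate block (adjusted p = 0.0688, edgeR). In that fit 5 of the list fell, beside 13.8% of all tested genes, and 1 rose, beside 2256 of all 13548. The wild type libraries had 1237, 1210 and 397.5 CPM of Fos and the ASXL1-MT-KI libraries 1212, 1396 and 533.7 CPM (adjusted p = 0.909, edgeR). Atf3 had 277.1, 262.0 and 114.3 CPM in wild type and 124.7, 131.5 and 56.8 CPM in ASXL1-MT-KI. It did not pass without the block (adjusted p = 0.248, edgeR) and was among the falls with it (adjusted p = 2.04e-10, edgeR). Egr1 had means of 476.0 ± 31.0 and 408.4 ± 34.2 CPM (adjusted p = 0.0605, edgeR). The summed level of the 12 was 5588 to 8469 CPM in wild type and 4519 to 6539 CPM in ASXL1-MT-KI. In the number 3 library Fos was lower than the mean of numbers 1 and 2 by -1.62 in wild type and -1.29 in ASXL1-MT-KI, on the log2 scale. Fos was the most extreme of the 12, which ranged up to 0.25 in wild type and 0.50 in ASXL1-MT-KI, both Egr2. For the 3 called genes it was -0.26 and -0.18 (Junb), -0.31 and -0.23 (Ier2), and -0.0058 and -0.14 (Nr4a1), in wild type and ASXL1-MT-KI. For the 10 NF-kB and IkB genes that difference lay between -0.26 and 0.31 in wild type and between -0.37 and 0.37 in ASXL1-MT-KI. With number 3 of both groups left out, all 10 still passed. The part of immediate early genes in the falls was not tested.

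Markers of other cells were examined beside these falls. For the counts below, 7.69% of all 13548 tested genes fell and 8.29% rose in edgeR without the block. The log2 fold change was below 0 for 49.8% of them. The replicate block called 1876 of them lower and 2256 higher. DESeq2 called 1169 lower and 1216 higher, limma-voom 1051 and 1144, and an unadjusted p under 0.05 gave 1927 and 2194. Of 5 tested B cell markers, 2 fell in edgeR, beside 7.69% of all tested genes. Cd79a went from 2.22 ± 0.48 to 1.08 ± 0.15 CPM and Vpreb1 from 1.04 ± 0.15 to 0.442 ± 0.10 CPM. The median of the 5 was -1.24, and the replicate block, limma-voom and an unadjusted p under 0.05 each gave 4 falls; the block and the unadjusted p also gave 1 rise, Cd79b. Cd79b, at 16.2 to 21.1 CPM, made up most of the list's sum. The summed level of all 7 in the list was 21.0 to 24.3 CPM in wild type and 20.7 to 23.9 CPM in ASXL1-MT-KI, and the B cell gene Ms4a1 had no count in any wild type library. Of 9 tested monocyte and macrophage markers, Ccr2 fell (55.6 ± 2.30 to 42.0 ± 3.65 CPM) and none rose in edgeR, but the median was 0.35 and 3 of the 9 were below 0. The replicate block called 1 fall and 4 rises in this list, and DESeq2, limma-voom and an unadjusted p under 0.05 each gave 1 fall and 1 rise. Its highest change was that of the complement gene C1qb, at 1.37 with 0.109 to 1.25 CPM over the 6 libraries, and it did not pass. The summed level of the monocyte and macrophage list was 217.8 to 257.9 CPM in wild type and 212.8 to 242.7 CPM in ASXL1-MT-KI. Among 5 erythroid markers Slc4a1 rose in edgeR, all 5 were above 0 with a median of 0.47, and the replicate block called all 5 as higher. DESeq2 called 2 rises, limma-voom 1, and an unadjusted p under 0.05 gave 3. The erythroid sum went from 358.5 to 482.8 CPM in wild type to 481.2 to 545.2 CPM in ASXL1-MT-KI. Of 24 tested neutrophil, dendritic, T and NK, mast and basophil, and endothelial and stromal markers, none passed in edgeR without the block or in limma-voom. At an unadjusted p under 0.05, 2 were lower and 1 higher, and DESeq2 called 1 fall. With the replicate block 3 fell and 6 rose, 4 of the rises being neutrophil markers and 2 of the falls mast and basophil markers. The stromal gene Col1a1 had 106 counts in wild type library 1 and 3 to 7 in the others. Of the progenitor markers reported here, Cd34 fell by 0.31 on the log2 scale and Myb rose by 0.20. The part of these markers in the falls of the NF-kB and IkB genes was not tested.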

How the data were processed

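RNA from LK cells was read as paired ends of 124 bp from NEBNext Ultra libraries made with 200 ng RNA, per the labels' protocols. HISAT2 2.0.4 and mm10 are named in the submitters' processing notes; the counting tool, its annotation and its treatment of strand and shared reads are not stated there or in the labels. The authors deposited raw counts per gene symbol, not normalized, with 1 column per library; 6240 of 24421 rows are 0 throughout. Columns were matched to libraries through their names.

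ASXL1-MT-KI was compared with wild type over all genes with edgeR 4.0.16 in R 4.3.3; genes were kept by filterByExpr (minimum count 10) and scaled by TMM (0.972 to 1.03), and genotype alone was tested with the robust quasi-likelihood F test. The p-values were adjusted by Benjamini-Hochberg over the 13548 tested genes, at 0.05. The biological coefficient of variation was 8.78%. Standard errors are the log2 fold change divided by the square root of F. RPKM uses the longest GENCODE M21 transcript on GRCm38, the assembly that mm10 names; coordinates are from the same annotation. Pipelines were tested on simulated data, and figures were drawn with matplotlib 3.10.9.

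The members, the gene lists and the 4 ratios were chosen with earlier results of these data known. Named are all 10 members, up to 4 genes of each of 3 pathway lists by p, Asxl1, Fos, Egr1, and 3 similar genes for 2 members; others were named after their values were seen, for their role or as the rest of a count. The values of some marker genes are not reported here.

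Same-numbered libraries deviated together, with correlations across genes of 0.328, 0.224 and 0.511, all over 0.1. No label states a pairing, and wild type 2 also correlated with ASXL1-MT-KI 1 (0.175), likewise over 0.1. The numbers were therefore used as pairs only in the replicate block, the paired test of ratios and the differences by number. The main fit left them out. No 2 libraries of a group agreed within sampling noise (chi-square over degrees of freedom at least 7.93). Alternatives were the replicate block, other scalings and filters, DESeq2 1.42.0, limma-voom (limma 3.58.1), other thresholds and leaving out libraries.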

Additional observations from a re-analysis of the deposited data

How the results depend on the processing

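All 10 NF-kB and IkB genes had a negative log2 fold change in each of the 14 alternative fits. At an adjusted p under 0.05, 8 of the 10 passed in each, while Nfkb1 lost its call in 2 fits and Nfkbib in 6. The number of the 10 that passed was 8 to 10 on leaving out 1 library, 9 with total counts, 7 with a fold of at least 1.5 and 10 in the other settings. With the replicate block, calls over the whole table went from 2165 to 4132, among upstream activators from 8 to 13 and among negative regulators from 5 to 8; it changed no call of the 10 genes. Asking for a fold of at least 1.5 left 887 calls in the whole table, 1 upstream activator and 2 negative regulators. Leaving out 1 library gave 1128 to 2257 calls in the whole table, 2 to 8 among upstream activators, 3 to 6 among negative regulators and 11 to 16 among target genes. The fewest calls over the table came without wild type replicate 1 (1128), ASXL1-MT-KI replicate 2 (1143) and ASXL1-MT-KI replicate 1 (1388). With total counts, under which the median of all genes lay at 0.05 (log2), calls split into 767 lower and 1562 higher instead of 1042 and 1123. The 4 ratios kept their sign in each alternative; paired by number, the exact sign-flip test gave p = 0.25 for each, the smallest that 3 pairs allow. Depth limits Relb and Bcl3 most, at 224 and 309 counts in their lowest libraries.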
